A study of Mus musculus with 26 samples.

Results

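WT KLF4 sites outside M-ATAC peaks (called peaks of accessible chromatin) were examined here. They were 943 genomic stretches that were shared by both peak lists of WT KLF4. They overlapped no peak of either Klf4 KO list and no stretch shared by both mutant lists. They also overlapped none of the merged M-ATAC peak regions by 1 bp or more. They came from 3408 stretches shared by both WT lists, of which 2232 had no Klf4 KO peak and 2032 also had no shared mutant stretch. The 943 sites were 46.4% of the 2032 (Wilson 95% interval 44.2 to 48.6%), and the other 1089 overlapped an M-ATAC region and are called sites in M-ATAC peaks below.

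The KLF4 lists came from Klf4-/- mouse embryonic stem cells (mESC) of the KH2 line that re-expressed WT Klf4 or the R462A mutant, in which an arginine of the protein is replaced by alanine, and from Klf4-/- cells without it, with 2 samples in each group. WT and mutant Klf4 were delivered by lentivirus and induced with doxycycline, so these cells carried an induced transgene in a knockout background, and each group was an infected and selected population. The merged M-ATAC list, the single M-ATAC lists (4 samples, bisulfite converted), M-ATAC-NC (2 samples, the same methylated adaptors without conversion), ATAC (2 samples, Nextera adaptors), the CTCF lists (CTCF M-ChIP, CTCF M-ChIP-NC and CTCF ChIP, 2 samples each) and the RNA-seq (2 samples, merged) all came from KH2 mESC with their own Klf4. Accessibility in the rescued cells was therefore not measured by these lists, and "outside M-ATAC peaks" refers to mESC with endogenous KLF4. All cells were grown on feeder cells, which were removed by pre-plating.

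In the sample titles the 4 WT and mutant lists are M-ATAC, but the library names in the lists read KLF4 M-ChIP, and PeaKDEck, which made the lists, is the peak caller that the methods name for KLF4. They are treated as KLF4 peaks here. The KO lists are from KLF4 ChIP without bisulfite conversion, so the KO group differs from the WT and mutant groups in assay as well as in genotype. In the merged RNA-seq the pluripotency markers Pou5f1, Sox2, Nanog, Esrrb and Zfp42 had 657, 477, 461, 296 and 229 TPM, and Klf4 had 270 TPM. The feeder and fibroblast markers Col1a1, Col1a2, Thy1, Col3a1, Twist1 and Prrx1 had 48.7, 30.2, 20.2, 11.3, 4.72 and 2.77 TPM.

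The KLF4 lists stood apart from the others on chromosome 8. Chromosome 8 held 17.3% and 14.8% of the peak regions of WT1 and WT2, 19.4% and 20.2% of those of Mut1 and Mut2, and 11.3% and 10.5% of those of KO1 and KO2. In the 14 ATAC and CTCF lists it held 4.92 to 5.40%, against 4.75% of the length of the chromosomes. The X chromosome held 0.354% and 0.502% of the WT regions and 0.200% and 0.289% of the mutant regions, below the 1.39 to 2.82% of the ATAC and CTCF lists, whereas the KO lists, with 1.45% and 1.90%, were within that range. The part of this in the results was not tested beyond leaving chromosome 8 out.

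KLF4 is a zinc finger transcription factor of the Krüppel-like family that binds GC-rich sequence through its C-terminal fingers, and it is part of the network of factors that keeps mESC pluripotent. Its preferred DNA holds the core GGGYGTGG, which can carry a CpG (GGGCGTGG) or a TpG (GGGTGTGG) in the middle. KLF4 is also described as a pioneer factor, one that can engage sites in closed chromatin, so its sites without an M-ATAC peak are of interest. The lack of a called peak does not by itself show closed chromatin.

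The sequences of sites with the smallest p are shown first, because most of them did not hold the core. The 12 sites meant below were taken by width from 22 sites tied at p of 1e-12 in both WT lists. Of these 22, 11 held GGGCGTCG and 8 held a core. They are read on the plus strand of GRCm38 (mm10), from the middle of the site or around the capitals. Capitals mark the core GGGCGTGG or GGGTGTGG or the word GGGCGTCG, on either strand. GGGCGTCG shares with the CpG form of the core its first 6 letters, and was picked after these sequences had been read, so its counts are a description. In the following 8 of the 12 sites with the smallest p, the capitals mark GGGCGTCG (or CGACGCCC, its reverse complement). These sites are shown because the same word recurs, and the letters around it were not compared between sites.
Rrp1b, chr17:32062279-32062398: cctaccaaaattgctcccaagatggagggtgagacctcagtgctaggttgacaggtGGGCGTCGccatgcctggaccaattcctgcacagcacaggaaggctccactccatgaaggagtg
Crybg2, chr4:134072872-134072991: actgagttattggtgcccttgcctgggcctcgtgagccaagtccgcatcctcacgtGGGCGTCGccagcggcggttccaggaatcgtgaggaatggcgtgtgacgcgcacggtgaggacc
D430019H16Rik, chr12:105437479-105437598: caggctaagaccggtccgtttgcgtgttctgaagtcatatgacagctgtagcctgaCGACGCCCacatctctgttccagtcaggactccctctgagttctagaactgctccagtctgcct
Tbl1xr1, chr3:22131683-22131802: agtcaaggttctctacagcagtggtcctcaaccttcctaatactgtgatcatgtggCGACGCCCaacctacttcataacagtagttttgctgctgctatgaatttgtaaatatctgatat
Cdh5, chr8:104124664-104124783: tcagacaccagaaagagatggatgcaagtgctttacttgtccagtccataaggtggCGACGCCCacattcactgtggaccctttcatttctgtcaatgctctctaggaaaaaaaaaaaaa
Zmynd11, chr13:9765655-9765774: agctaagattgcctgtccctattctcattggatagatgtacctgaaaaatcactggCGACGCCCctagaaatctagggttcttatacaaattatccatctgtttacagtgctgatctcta
Kif5c, chr2:49725554-49725673: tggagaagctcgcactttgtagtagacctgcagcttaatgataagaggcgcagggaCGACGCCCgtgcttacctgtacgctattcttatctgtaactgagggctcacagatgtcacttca
Arid2, chr15:96351134-96351253: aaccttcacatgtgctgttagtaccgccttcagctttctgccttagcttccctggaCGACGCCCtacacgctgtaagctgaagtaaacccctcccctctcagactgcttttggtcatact

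Sites with repeated or single cores are shown next for comparison, the Crlf2 site by the stretch with its core. Crlf2 is also among the 12 sites, E130006D01Rik among both the 12 and the widest, Thbs2 is among the widest, and Cdh1 is a gene of a listed pathway.
E130006D01Rik, chr5:111757550-111757849: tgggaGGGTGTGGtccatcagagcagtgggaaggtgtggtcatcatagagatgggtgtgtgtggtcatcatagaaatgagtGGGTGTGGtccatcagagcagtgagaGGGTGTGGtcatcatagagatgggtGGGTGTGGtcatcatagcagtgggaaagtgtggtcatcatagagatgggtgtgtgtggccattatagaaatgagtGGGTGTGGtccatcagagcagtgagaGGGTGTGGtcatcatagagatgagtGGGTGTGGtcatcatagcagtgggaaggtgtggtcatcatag
Crlf2, chr5:109555690-109555809: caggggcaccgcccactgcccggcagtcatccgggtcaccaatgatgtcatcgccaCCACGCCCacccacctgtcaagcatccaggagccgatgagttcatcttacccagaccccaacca
Thbs2, chr17:14587473-14587592: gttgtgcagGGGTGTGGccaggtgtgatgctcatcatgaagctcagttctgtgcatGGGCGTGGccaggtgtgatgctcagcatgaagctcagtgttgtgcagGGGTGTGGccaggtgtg
Cdh1, chr8:106624101-106624220: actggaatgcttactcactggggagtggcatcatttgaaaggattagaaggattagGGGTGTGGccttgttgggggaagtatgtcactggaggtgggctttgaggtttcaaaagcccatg

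The intron of Map4k4, also among the 12, held neither word, and is shown because a short unit is repeated in it.
Map4k4, chr1:39915641-39915760: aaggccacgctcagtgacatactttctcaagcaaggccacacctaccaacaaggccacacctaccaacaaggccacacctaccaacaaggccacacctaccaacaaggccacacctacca

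Among all 943 sites, the KLF4 core was found in 257 (27.3%, Wilson 95% interval 24.5 to 30.2%). It was found in 490 of the 1089 sites in M-ATAC peaks (45.0%, 42.1 to 48.0%), a difference of -17.7 percentage points (Newcombe interval -21.8 to -13.6). Of the 7563870 windows of 350 bp, the median width of the sites, that tile the genome without unknown bases, 2.79% held it. Of 693 stretches shared by both mutant lists without a KO peak 1.15% did, and of 5839 stretches shared by both KO lists 14.0%. Neither of these sets was filtered by the M-ATAC list, and the KO stretches had a median distance of 0 bp to an M-ATAC region. The sites outside M-ATAC peaks thus held the core less often than those in M-ATAC peaks and more often than the mutant stretches, the KO stretches and the genome windows, with intervals that did not overlap.

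GGGCGTCG was found in 121 of the 943 sites (12.8%, 10.8 to 15.1%). It was found in 29 of the 1089 sites in M-ATAC peaks (2.66%, 1.86 to 3.80%), in 35 of the KO stretches (0.599%) and in 0.0372% of the genome windows. None of the 693 mutant stretches held it, which allows a share of up to 0.433% at 3 counts of the total and 0.551% by the Wilson interval. Only 7 sites held both this word and a core, so that 371 of the 943 held at least 1 of the words and 572 held neither. When every 8-letter word was counted in the 386 sites that had no core and at most 50% soft-masked bases (bases that the reference marks as repeats), GGGCGTCG was the most frequent, in 97 sites (25.1%), ahead of CACACACA in 74. It was found in 23 of the 573 sites in M-ATAC peaks of the same kind (4.01%).

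Both words lay close to the middle of the sites. The median distance from the midpoint was 52 bp for the 454 cores and 42 bp for the 121 copies of GGGCGTCG, whereas all positions in the sites that held them had medians of 100 and 116 bp. Within 75 bp of the midpoint lay 67.2% of the cores and 75.2% of the copies of GGGCGTCG, against 37.9% and 32.6% of all positions. The cores of sites in M-ATAC peaks also had a median of 52 bp.

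**Figure D1:**
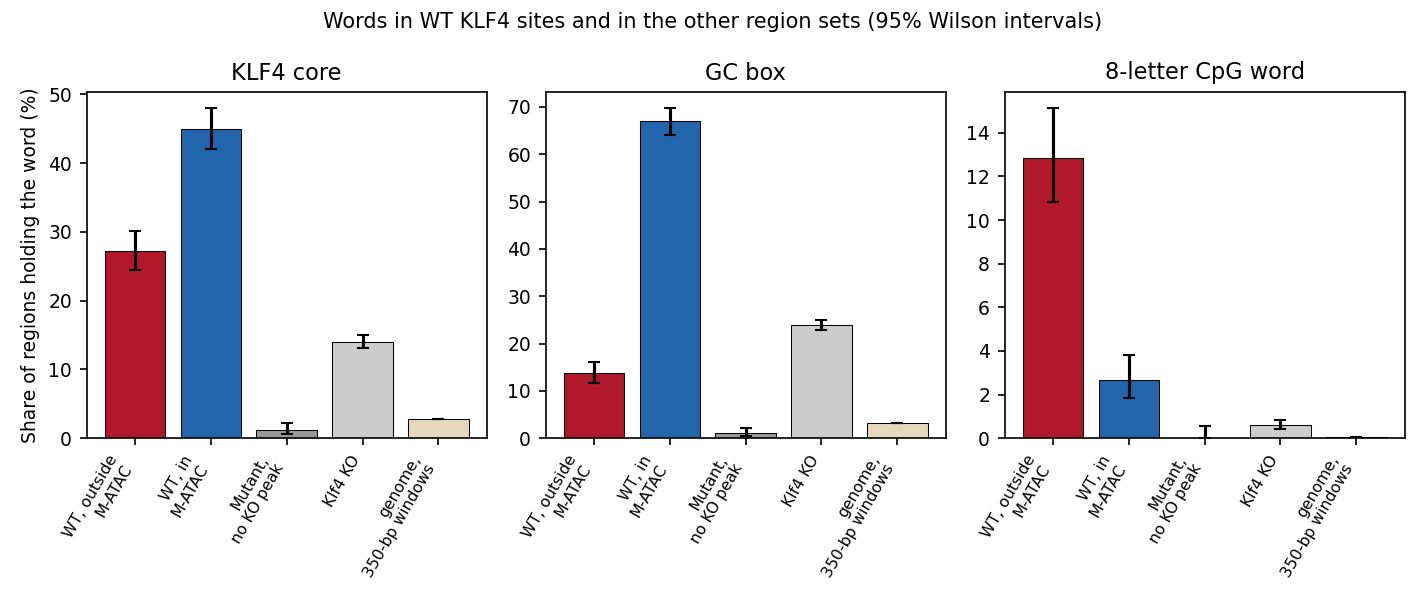
Share of regions (y axis, %, a separate scale in each panel) that held the KLF4 core (left), the GC box GGGCGG (middle) or the 8-letter word GGGCGTCG (right), in the 943 sites outside and the 1089 sites in M-ATAC peaks, in the mutant and KO stretches and in genome windows of 350 bp, with 95% Wilson intervals. The sites outside M-ATAC peaks were below those in M-ATAC peaks for the core (27.3% against 45.0%) and the GC box, and above them for GGGCGTCG (12.8% against 2.66%).

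The other words of the search are given with the same comparison. The GC box GGGCGG, which is bound by SP and other KLF proteins, was in 13.7% of the sites against 66.9% of those in M-ATAC peaks and 3.24% of the genome windows. AAGGTCA, the half-site of ESRRB and other nuclear receptors, was in 6.36% against 10.5%, with 6.49% of the genome windows. The octamer ATGCAAAT of POU5F1 was in 2.23% against 1.10%, and CATTGT of SOX2 in 15.8% against 12.6%, with 3.05% and 21.2% of the genome windows. The intervals of the last 2 differences, 0.0072 to 2.37 and 0.186 to 6.30 percentage points, came close to 0, and within 300 bp around the midpoint the interval for CATTGT included 0 (-0.128 to 5.51). All were searched on both strands, and a match is a description, not a bound site.

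Each list was then searched on its own, with all its regions outside the merged M-ATAC list and without the other filters. The core was in 11.0% of 6700 such regions of WT1 and 17.1% of 7143 of WT2, in 2.79% and 2.99% of those of Mut1 and Mut2, and in 9.13% and 8.32% of those of KO1 and KO2. GGGCGTCG was in 3.09% and 3.43% of the WT regions, 0.0582% and 0.0747% of the mutant regions and 0.729% and 0.348% of the KO regions. Both WT lists were above both mutant and both KO lists for both words, although the WT and KO lists were close for the core. No test was run, since 2 samples against 2 cannot go below p = 0.333 in an exact permutation test. The difference in GGGCGTCG between regions outside and in M-ATAC peaks was smaller in single lists than in shared sites. With KO peaks and shared mutant stretches removed, it was 0.597 percentage points in WT1, with an interval that included 0 (-0.377 to 1.41), and 1.10 in WT2 (0.386 to 1.77), against 10.2 in the shared sites (7.88 to 12.6). In peaks without a match in the other WT list and without a KO peak, GGGCGTCG was in 1.06% of 4908 regions of WT1 and 1.65% of 5407 of WT2.

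**Figure D2:**
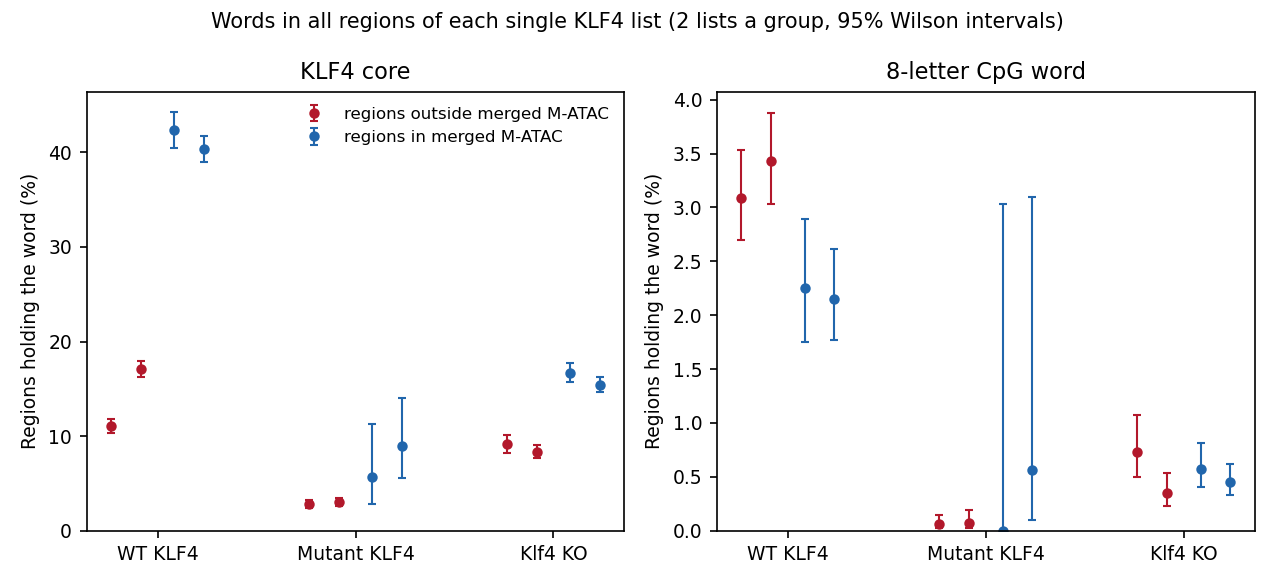
Share of all peak regions of each single KLF4 list (y axis, %, a separate scale in each panel) that held the KLF4 core (left) or GGGCGTCG (right), for regions outside (red) and in (blue) the merged M-ATAC list, with 2 lists in each group and 95% Wilson intervals. For GGGCGTCG the red points were at 3.09% and 3.43% in WT, 0.0582% and 0.0747% in the mutant and 0.729% and 0.348% in the KO.

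The PeaKDEck p-value of a site, a measure of how unlikely its read density is under the background, came from the same lists that chose the sites and is given as a description. The median of the larger of its p in WT1 and WT2 was 4.97e-05 for sites outside and 3.38e-05 for sites in M-ATAC peaks. In WT1 alone the median was 3.38e-05 and in WT2 alone 3.48e-05. The smallest p that the lists give is 1e-12, and 22 sites (2.33%) had it in both lists, as did 44 of the sites in M-ATAC peaks (4.04%). At the other end, 161 of the sites (17.1%) were at the largest p of WT2 among them, 6.87e-05, against 77 of the sites in M-ATAC peaks (7.07%). At the largest p of WT1, 9.52e-05, were 151 (Wilson interval 13.8 to 18.5%) against 135 (10.6 to 14.5%), with intervals that overlapped.

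The shared stretch of a site was 50 to 750 bp wide, with a median of 350 bp against 400 bp in M-ATAC peaks. The peaks that overlapped there had a median width of 450 bp in each WT list. The stretch was under 300 bp, the smallest width of a single peak, in 173 sites (18.3%) against 85 (7.81%). Width and the words went together: the core was in 12.1% of the sites of up to 250 bp, 22.7% of those of 300 bp, 30.1% of those of 350 to 400 bp and 36.9% of the wider ones. In each of these width classes the share was higher in the sites in M-ATAC peaks, at 28.2%, 40.6%, 46.2% and 48.9%.

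The sites that held a core, GGGCGTCG or neither differed in several other ways. Of the 257 with a core, 24.1% had over 50% soft-masked bases, of the 121 with GGGCGTCG 14.0%, and of the 572 with neither 49.5%. The median GC content was 50.5%, 46.7% and 44.0%, respectively. In a mutant KLF4 list (Mut1 or Mut2 alone) lay 9 of the sites with a core (3.50%), none of those with GGGCGTCG, which allows up to 2.48% at 3 counts of the total and 3.08% by the Wilson interval, and 177 of those with neither (30.9%). The median p, again the larger of both lists, was 3.82e-05, 1.54e-05 and 6.03e-05. Of the 22 sites at the smallest p in both lists, 11 held GGGCGTCG, 8 held a core and 5 held neither, so that 2 held both. The median width was 400 bp with a core, 450 bp with GGGCGTCG and 300 bp with neither. The sites without either word were thus narrower and more repeat-rich, with larger p and more often shared with a mutant list. The part of width in the other differences was not tested.

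**Figure D3:**
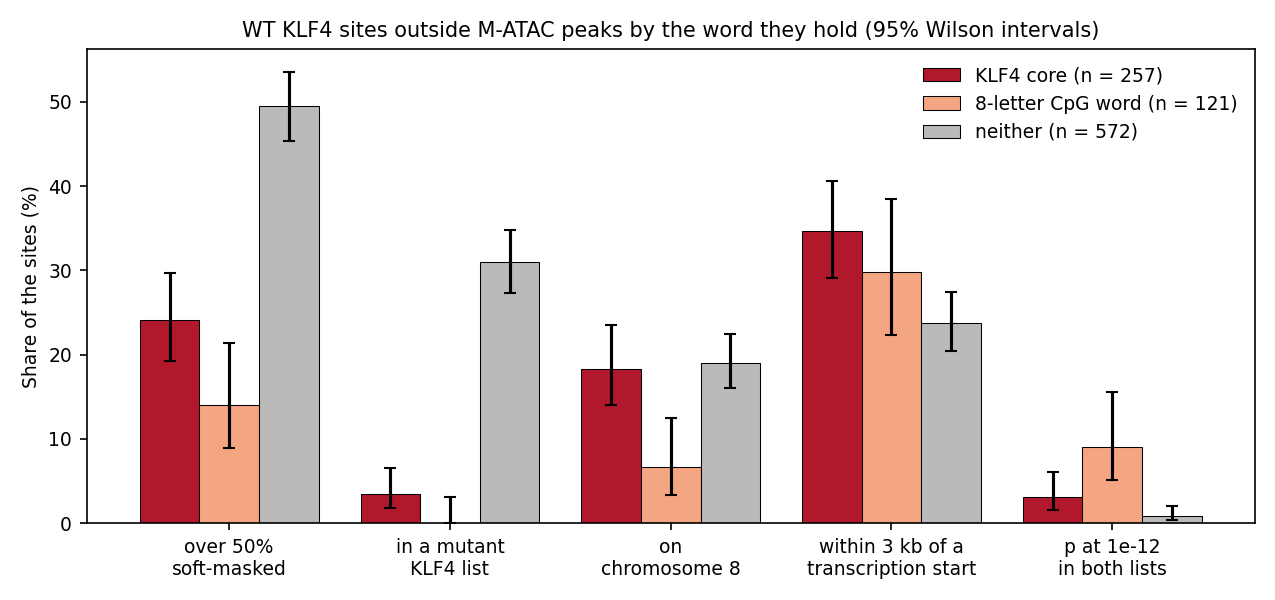
Share of the sites outside M-ATAC peaks (y axis, %) with 5 features (x axis), for the 257 sites with a KLF4 core, the 121 with GGGCGTCG and the 572 with neither, with 95% Wilson intervals. The 7 sites with both words are in both of the first groups. In a mutant list lay 3.50% of the sites with a core, none with GGGCGTCG and 30.9% of those with neither.

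Over all sites, 362 of the 943 (38.4%) had over 50% soft-masked bases, against 61 of the 1089 in M-ATAC peaks (5.60%) and 71.9% of the mutant stretches. The median soft-masked share of a site was 27.8%, against 5.75% in M-ATAC peaks and 81.4% in the mutant stretches. Of the bases of the genome 36.4% were soft-masked, which is a share of bases and not of sites. The share of genome windows with over 50% soft-masked bases was not computed. The median GC content was 46.3% against 57.6% in M-ATAC peaks and 41.6% in the mutant stretches. CpGs were sparse, with a median of 1.00 per 100 bp against 4.50, and 153 sites (16.2%) had none against 18 (1.65%). Among sites with at most 50% soft-masked bases, a limit chosen after seeing the data, the difference in the core shrank from -17.7 to -10.7 percentage points.

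Overlap with a single mutant list was a part of the rule only where both lists shared it. Mut1 overlapped 107 of the sites (11.3%) and Mut2 80 (8.48%), and 1 site touched a peak of each. In M-ATAC peaks they overlapped 1 and 9 of 1089 sites. Of all regions of the mutant lists, 6872 of Mut1 and 5353 of Mut2 lay outside the merged M-ATAC list, and 123 and 179 lay in it. The part of this in the difference was not tested. Without the 186 sites in either mutant list, 757 remained, and their share of all WT sites was 41.2% in place of 46.4%.

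Accessibility was taken next from the lists that the rule did not use by name. Per the methods, M-ATAC-NC is an aliquot of M-ATAC kept before conversion, so its low overlap is tied to the rule and is a description. The ATAC libraries were made separately, with the Nextera transposase. M-ATAC-NC replicates 1 and 2 overlapped 13 and 18 of the 943 sites, and ATAC replicates 1 and 2 overlapped 6 and 12. The group means were 1.64% ± 0.375 (SD, n = 2) and 0.954% ± 0.450 (SD, n = 2), and ATAC was below M-ATAC-NC in both lists. The difference of -0.689 percentage points had p = 0.333 in a two-sided exact permutation test (n = 2 against 2), the smallest it allows, and adjusted p = 0.333 over the 4 tests made. The same lists overlapped 57.9 to 72.9% of the sites in M-ATAC peaks. The share of genome windows that they overlap was not computed. The single M-ATAC lists overlapped 3, 0, 0 and 0 sites in replicates 1 to 4. Per the methods, the merged list was called anew on merged M-ATAC replicates. In all, 910 sites were in none of these 8 lists, 33 were in at least 1, 8 were in both M-ATAC-NC lists and 2 in both ATAC lists.

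The 33 sites with some accessibility peak are described by their features, with no test. The core was in 15 of them (45.5%, 29.8 to 62.0%), against 27.3% of all the sites, 18 were within 3 kb of a transcription start, 2 had over 50% soft-masked bases and 1 was in a mutant list. Ywhag, with 2 such lists, and Pdlim1, with 1, were among them. The median distance from a site to the nearest merged M-ATAC region was 7485 bp, with quartiles at 2630 and 18792 bp. Within 500 bp lay 62 sites (6.57%), and over 10 kb away lay 386 (40.9%). At the border of the rule, the site nearest to Banp touched an M-ATAC region without overlap and those nearest to Tprgl and Mtch1 were 2 and 11 bp away, whereas the sites near Tmf1 and Arvcf counted as inside with 1 and 2 bp covered.

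**Figure D4:**
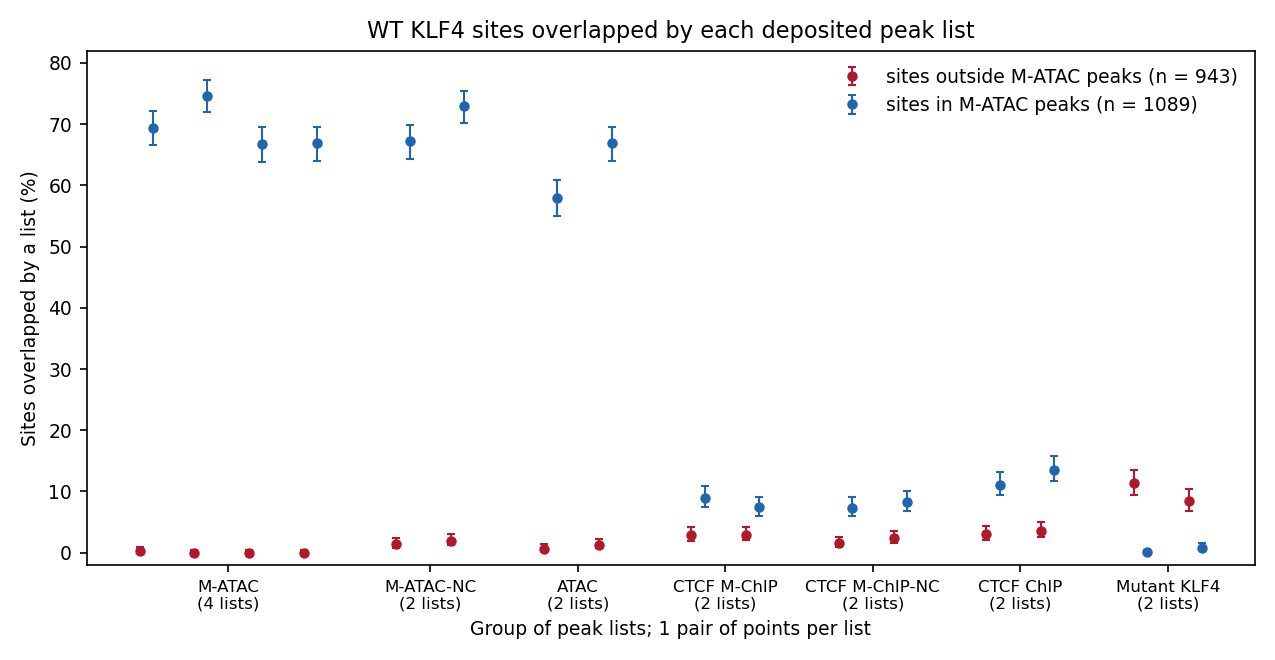
Share of the 943 sites outside (red) and the 1089 sites in (blue) M-ATAC peaks that each deposited list overlapped by at least 1 bp (y axis, %), with 1 pair of points per list and 95% Wilson intervals. The rule that chose the sites used the merged M-ATAC list, and M-ATAC-NC is an unconverted aliquot of M-ATAC, so the points of both are a description. The red points were at or below 3.61% in the accessibility and CTCF lists and at 11.3% and 8.48% in the mutant lists.

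CTCF is the zinc finger protein that anchors chromatin loops, and its single lists overlapped 15 to 34 of the sites. The share of genome windows that the CTCF lists overlap was not computed, so these shares have no genome background. CTCF ChIP replicates 1 and 2 overlapped 29 and 34 sites (mean 3.34% ± 0.375, SD, n = 2), CTCF M-ChIP 27 and 28 (2.92% ± 0.0750) and CTCF M-ChIP-NC 15 and 22 (1.96% ± 0.525). CTCF ChIP and M-ChIP differed by 0.424 percentage points, and M-ChIP and its unconverted control by 0.954, each with p = 0.333 in the exact permutation test (n = 2 against 2) and adjusted p = 0.333. In the sites in M-ATAC peaks the 6 lists overlapped 7.35 to 13.6%. The sites outside were lower in 6 of 6 lists, with a mean difference of -6.73 percentage points (2.74% against 9.47%), with p = 0.0312 in a two-sided exact sign-flip test over the lists, the smallest it allows, and adjusted p = 0.125. The difference failed the correction, which it could not have passed. With 4 tests, and p of at least 0.333 in the others, 0.125 was the smallest adjusted p possible. The lists were compared over the same sites, and CTCF M-ChIP-NC is an unconverted aliquot of CTCF M-ChIP. With each pair averaged, 4 units gave p = 0.125 in the exact test, and with at least 50% of a site covered it was -3.39 percentage points.

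Of the 943 sites, 41 were in at least 1 CTCF list and 15 in all 6. The merged CTCF M-ChIP list overlapped 29, with fold enrichments of 6.38 to 20.3 (median 11.6), and 22 of them held a deposited CTCF motif match. In 10 of these, motif cytosines had at least 5 reads, with 19 of 366 reads methylated (5.19%, Wilson interval 3.35 to 7.97%). The site in the intergenic region near AA619741, a processed pseudogene, had 0 of 90 reads methylated over 4 cytosines, the one near Gm49483 0 of 66 and the one in an exon of Prss22 0 of 54. Those near Kpnb1 (an importin) and Stmn4 had 1 of 36 and 1 of 24, and the promoter site of Taldo1 0 of 35. A further site in an intron of Zmynd8, named after its value was seen, had 10 of 22 reads methylated (45.5%, 26.9 to 65.3%), and thus 10 of the 19 methylated reads. Those near Ipcef1 and Ccdc116, also named after their values were seen, had 5 of 15 (33.3%) and 2 of 11 (18.2%). Of the 41 sites in a CTCF list, 9 held a KLF4 core (22.0%, Wilson interval up to 36.7%), against 27.3% of all the sites. None of the 41 was in an accessibility list (Wilson interval up to 8.57%), against 3.50% of all the sites. The intervals cover counting error only.

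The place of the sites was taken from GENCODE M21. Within 3 kb of a transcription start, taken as the promoter, lay 258 sites (27.4%, 24.6 to 30.3%), 317 (33.6%) were in introns, 325 (34.5%) intergenic and 43 (4.56%) in exons. In M-ATAC peaks 725 of 1089 (66.6%) were in promoters, a difference of -39.2 percentage points (-43.1 to -35.1). A transcription start was covered by 28 sites (2.97%) against 481 (44.2%). The median distance to the nearest start was 8254 bp (quartiles 2644 and 21969 bp) against 95 bp. In promoters lay also 126 of the 693 mutant stretches (18.2%, 15.5 to 21.2%) and 2335 of the 5839 KO stretches (Wilson interval 38.7 to 41.3%). The sites outside M-ATAC peaks were thus in promoters more often than the mutant stretches and less often than the KO stretches. Neither of these sets was filtered by the M-ATAC list. The median distance to an M-ATAC region was 11017 bp for the mutant stretches and 0 bp for the KO stretches. The part of this in the ranking was not tested. The share of genome windows within 3 kb of a start was not computed, so these shares have no genome background. Most of the sites lay over 3 kb from a start, and the promoter sites had a median distance of 977 bp.

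The 943 sites had 876 different nearest genes, and 528 of the sites (56.0%) were nearest to a protein-coding gene. For the 814 sites whose nearest gene was in the expression table, the median was 0.560 TPM (0.310 to 1.11), against 11.2 TPM for the sites in M-ATAC peaks, 0.140 for the mutant stretches and 3.85 for the KO stretches. The nearest gene reached 1 TPM for 46.8% of the sites against 74.2%, and 28.2% of all genes in the table did, with a median of 0 TPM. By the nearest protein-coding gene the median was 5.89 TPM against 15.3. By word, the median for the nearest gene of any type was 3.16 TPM for sites with a core, 0.600 with GGGCGTCG and 0.270 with neither. The TPM are the authors' merged values, with no replicate spread.

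The 12 sites with the smallest p, all at 1e-12 in both lists, were taken by width from the 22 at that limit and lay in various places. Promoter sites were at Rrp1b, a gene of ribosome biogenesis (chr17:32061901-32062650, 2733 bp from the start, 50.3 TPM), at Crlf2, the receptor of the cytokine TSLP (chr5:109555501-109556200, 273 bp, 15.1 TPM), at Zmynd11, a reader of methylated histone H3 (chr13:9765351-9766000, 21 bp, 19.6 TPM), and at Kif5c, a kinesin heavy chain (chr2:49725251-49725900, 2684 bp, 6.94 TPM). Intronic sites were in Map4k4, a kinase (chr1:39915351-39916050, 91.3 TPM), Tbl1xr1, a subunit of the NCoR corepressor (chr3:22131351-22132050, 19.0 TPM), Arid2, a subunit of the PBAF remodeller (chr15:96350851-96351500, 27.1 TPM), Cdh5, the cadherin of endothelial cells (chr8:104124251-104124950, 0.460 TPM), and the noncoding gene E130006D01Rik (chr5:111757451-111758200, 1.29 TPM). An exon site was in Crybg2 (chr4:134072651-134073300, 12.6 TPM), and an intergenic site was 16006 bp from D430019H16Rik (chr12:105437151-105437850, 0.940 TPM).

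Among these 12 sites, GGGCGTCG was in 9 and the core in 4, against 11 and 8 of all 22 sites at the smallest p in both lists. The E130006D01Rik site held 9 copies of GGGTGTGG, and the Crlf2 and Arid2 sites 1 core and 1 GGGCGTCG each. None of the 12 was in a mutant, CTCF or accessibility list. The Zmynd11 site was 66 bp, the Crlf2 site 415 bp and the Tbl1xr1 site 497 bp from a merged M-ATAC region, whereas the Arid2 site was 16973 bp away. The third widest site besides Rrp1b and E130006D01Rik, all of 750 bp, was 82866 bp from Thbs2, a matrix glycoprotein (chr17:14587251-14588000), with 6 cores and p of 2.58e-06 in WT1 and 1e-12 in WT2.

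The promoter sites of the most highly expressed genes were at Ywhag, a 14-3-3 protein (chr5:135933851-135934250, 286 TPM), Taldo1, transaldolase (chr7:141394801-141395150, 243 TPM), Zmynd8, a chromatin reader (chr2:165854601-165854900, 231 TPM), Lgals1, galectin-1 (chr15:78927751-78928050, 178 TPM), Pdlim1 (chr19:40270801-40271100, 174 TPM) and Smarca5, the ATPase of ISWI remodellers (chr8:80717001-80717350, 125 TPM). All 6 were 300 to 400 bp wide. Their p in WT1 and WT2 ranged from 2.84e-06 to 6.03e-05, and 1 of the 6, Pdlim1, held a core. The Taldo1 site was in all 6 CTCF lists and none of the other 5 was in any.

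Each of the gene lists held 0 or 1 genes that were the nearest gene of a site, where 751 of the 47606 genes in the expression table were. In the list of 26 pluripotency genes it was 1, Fgf4, a growth factor of mESC (132 TPM), with a site of 100 bp in an exon 3465 bp from its start (chr7:144864851-144864950), 70 bp from an M-ATAC region. In the LIF and STAT3 list of 12 it was 1, Jak2, a Janus kinase (4.27 TPM), with an intron site 3960 bp from the start (chr19:29256401-29256700). In the epithelial list of 16 it was 1, Cdh1, E-cadherin (163 TPM), with an intron site 19858 bp from the start (chr8:106624001-106624350) that held 1 GGGTGTGG. In the list of 18 lineage genes it was 1, T, the mesoderm factor Brachyury (0.860 TPM), with an intergenic site 31440 bp away (chr17:8466851-8467350). None of the 17 Klf family genes and none of the 10 feeder and fibroblast genes was nearest to a site. For the sites in M-ATAC peaks the counts were 3 (Tfcp2l1, Prdm14 and Etv5), 1 (Pim3), 0 and 0 for the first 4 lists, 3 (Klf3, Klf9 and Klf14) for the Klf family and 0 for the last.

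Chromosome 8 held 163 of the 943 sites (17.3%, 15.0 to 19.8%), or 126 per 100 Mb, against 107 of the 1089 sites in M-ATAC peaks (9.83%, 8.20 to 11.7%), or 82.7 per 100 Mb. On the other autosomes the sites had 13.6 to 53.7 per 100 Mb. The X chromosome held 3 sites. Within chromosome 8 the end of the chromosome was dense, with 31 sites between 110 and 120 Mb and 42 beyond 120 Mb, while 40 to 70 Mb held 2 in each 10 Mb. The core was in 28.8% of the sites on chromosome 8 and 26.9% of the others, and GGGCGTCG in 4.91% and 14.5%. In a mutant list lay 33.7% of the sites on chromosome 8 and 16.8% of the others. Without chromosome 8, 780 sites remained, 44.3% of the WT sites there, and the difference in the core was -18.5 percentage points. Another site within 50 kb was found for 156 of the 943 sites (16.5%) and for 14.6% of those in M-ATAC peaks, a difference of 1.94 percentage points with an interval that included 0 (-1.21 to 5.13).

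**Figure D5:**
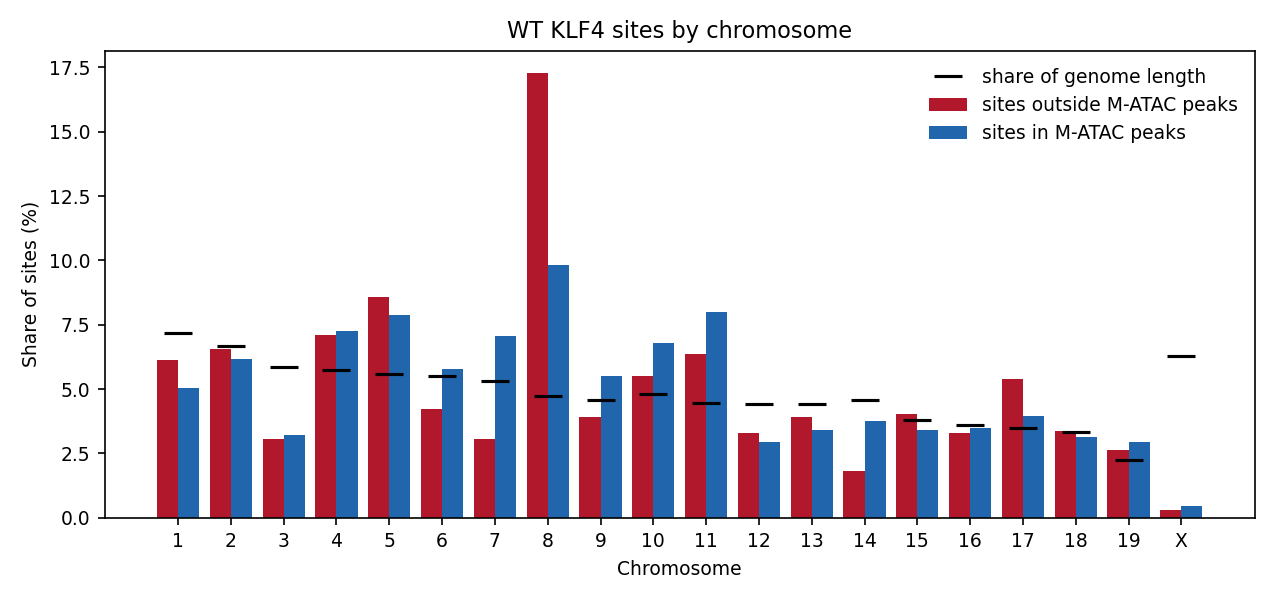
Share (y axis, %) of the 943 sites outside (red bars) and the 1089 sites in (blue bars) M-ATAC peaks on each chromosome (x axis; Y, with no site, is not drawn), with the share of the total chromosome length as a black line. Chromosome 8 held 17.3% and 9.83% of the sites with 4.75% of the length, and the X chromosome 0.318% and 0.459% with 6.28%.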

How the data were processed

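Peaks were measured in mESC by M-ATAC, ATAC and CTCF ChIP and in Klf4-/- mESC with WT, mutant or no KLF4. Per the submitters' processing notes and the methods, the authors trimmed reads with Trim Galore 0.4.4, aligned them to mm10 with Bismark 0.18.1 (M-ATAC, M-ChIP) or Bowtie2 (ATAC, ChIP) and filtered them with SAMtools 1.3. PeaKDEck regions, as deposited, lie on a 50-bp grid and carry a p-value each. The authors' MACS2 peaks carry a score, a ratio (fold enrichment) and −log10 values of p and q. The authors' tables give a count of methylated and of unmethylated reads, a percent per cytosine, a FIMO score and p-value per motif match, and TPM of merged replicates. Read depth is not in the peak lists and is not analysed here.

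Overlapping peaks of a list were merged, and an overlap was at least 1 bp. Sites were described with Python 3.11.15, NumPy 2.4.6, pandas 2.3.3 and SciPy 1.17.1. The files' build was compared with GRCm38 (all 43074 motif matches had the reference letters). Shares have Wilson intervals, differences Newcombe intervals and medians order-statistic intervals, all at 95%. They cover counting error only, and nothing says that the samples are separate cultures. Groups of lists were compared by exact permutation and sign-flip tests, with Benjamini-Hochberg adjustment over 4 tests. Functions were tested on simulated data. Named sites were the 12 with the smallest p (ties by width), the 6 promoter sites of highest TPM and sites nearest to listed genes. Up to 6 CTCF sites by motif coverage and 3 of the widest sites, which tied at 750 bp, were also named. Members, lists and tests were chosen with earlier results of these data known. Samples titled KLF4 M-ChIP were not analysed here. Other overlap, filter, distance, motif and p settings, and each list left out, were tried as alternatives. Some named sites are not reported here.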

Additional observations from a re-analysis of the deposited data

Results flagged for a closer look

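Of the 4 M-ATAC lists, replicate 1 overlapped 3 of the 943 sites and each of the other 3 overlapped 0, so replicate 1 was far from the rest by Dixon's criterion. The merged list that the rule used was called on merged M-ATAC replicates, which keeps the overlaps of the single lists at or near 0. Any nonzero count beside 3 zeros therefore meets the criterion, and nothing is read from it.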

How the results depend on the processing

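No difference changed sign under any of the alternatives. The number of sites, the share outside and the medians have no direction that could reverse. In all, 51 settings were the same, 29 had moved and 7 were weaker. A setting had moved when it left the main interval or, for the number of sites, differed over 1.5-fold. The weaker settings were all of the CTCF difference. The number of sites, 943, was 495 with the smaller 50% of the p-values of each WT list, and ranged from 836 to 6253 when 1 KLF4 list was left out, the largest with WT2 alone and 5684 with WT1 alone. The share outside M-ATAC peaks, 46.4%, was 56.0% with 50% of a site covered, 38.3% with KO peaks kept, 43.2% with only sites in both KO lists removed, 41.2% without sites in either mutant list, 50.7% with mutant stretches kept and 40.1% with the smaller p-values. It was 43.5 to 77.9% without 1 list.

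The promoter difference was -47.0 points within 1 kb and -43.9 to -43.4 with 1 WT list, and the core difference -5.61 for GGGTGTGG alone, -10.7 with at most 50% soft-masked bases and -31.6 to -23.5 with 1 WT list. The difference in GGGCGTCG was 15.1 with at most 50% soft-masked bases and 0.597 to 1.10 with 1 WT list, where the interval in WT1 alone included 0. The median width was 450 bp in each WT list, and the median p 3.38e-05 in WT1 and 3.48e-05 in WT2. The median TPM was 17.4 for genes of at least 1 TPM, 5.89 for protein-coding genes and 2.70 within 10 kb (2.695 before rounding). Leaving out chromosome 8, and the settings on GGGCGTCG and soft-masking, were chosen after seeing the data.

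The CTCF difference of -6.73 points was -3.39 with at least 50% of a site covered, -7.30 with 4 units (p = 0.125, exact sign-flip test) and -7.19 to -6.08 without 1 list, where p could not go below 0.0625. With a replicate block, the samples paired by number gave -0.689, 0.424 and 0.954 points for ATAC against M-ATAC-NC, CTCF ChIP against M-ChIP and M-ChIP against M-ChIP-NC, each with p = 0.5 by exact sign flips, the smallest it allows. The labels do not say that a number marks a shared batch. With at least 50% of a site covered the latter 2 were 1.01 and 0.106 points. Leaving out 1 list gave -1.01 to -0.371, 0.159 to 0.689 and 0.583 to 1.33 points. Read depth, unknown here, limits all lists.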
